A study of Homo sapiens with 36 samples.

Results

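The 8 genes described here encode the SERCA pumps (ATP2A1, ATP2A2 and ATP2A3), the STIM calcium sensors (STIM1 and STIM2) and the ORAI calcium channels (ORAI1, ORAI2 and ORAI3). They were chosen by name from the 28516 genes of the count matrix, and all 8 reached the 10 counts, summed over libraries, that a gene needed to be tested. The choice also used one measured value, the lower ATP2A1 level after MEIS1 activation, so the members are described without a test wherever MEIS1-OE libraries enter. SERCA pumps use ATP to move calcium from the cytosol into the endoplasmic reticulum (ER). When the ER store is emptied, STIM proteins in its membrane sense the loss, gather where the ER meets the plasma membrane and open ORAI channels, a process called store-operated calcium entry. The entering calcium refills the store through the SERCA pumps, and in neural progenitors it is one of the routes of calcium signalling.

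mRNA was measured in human neural stem cells (hNSC), a commercial line grown in serum-free medium, 48 h after transduction with lentiviral vectors. CRISPR-activation, in which a Cas9 that does not cut carries activation domains to a promoter, was directed to MEIS1 in MEIS1-OE and to MEIS2 in MEIS2-OE. Both genes encode homeodomain transcription factors. In MEIS1-KO and MEIS2-KO, a cutting Cas9 was directed to the same genes in a mixed cell population, so that cells with and without an altered allele were read together. A non-targeting guide RNA took the place of the guides in ctrl-OE and ctrl-KO, with the vectors otherwise those of the activation or of the knockout. Each of the 6 conditions had 6 libraries, and since nothing states that these came from separate cultures, the p-values measure only the spread between these libraries, which may be technical. Levels are given as CPM, the counts of a gene scaled to library sizes that were normalized by TMM (trimmed mean of M-values).

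The counts on genes ranged from 15429985 to 22940493 per library. The targeted genes moved as labelled: MEIS1 was 17.4-fold higher in MEIS1-OE and fell by 65.2% in MEIS1-KO, and MEIS2 was 36.5-fold higher in MEIS2-OE and fell by 53.2% in MEIS2-KO. Of 10 neural stem cell markers, 9 averaged at least 1 CPM, with VIM the highest and HES5 the exception. The neuron and mesenchyme lists, led by MAP2 and COL3A1, summed to 422 to 1061 CPM and 347 to 1145 CPM. Of the 8 neuron markers, 5 averaged at least 1 CPM, with MAP2 at 488 and TUBB3 at 190 CPM. RBFOX3, STMN2 and DCX averaged 0.0096, 0.080 and 0.47 CPM. The astrocyte and oligodendrocyte list summed to 24.5 to 38.5 CPM. Libraries also differed in how GC-rich and GC-poor transcripts were represented. The GC tilt of a library, which is the median log2 deviation of genes in the most GC-rich decile minus that in the least GC-rich decile, ranged from -0.72 to 0.65. It was above 0.5 in size in 4 libraries, namely replicate 2 of ctrl-KO, replicate 3 of MEIS1-OE, and replicate 6 of both ctrl-OE and MEIS1-KO.

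MEIS proteins bind DNA with the core TGACAG, and the regions upstream of the members were searched for it. The RefSeq table used here (GRCh38.p14) gave 11 promoters for 6 of the 8 members, each from 250 bases before to 50 bases after a start site, and the promoters of ATP2A3 and ORAI1 were not analysed here. TGACAG or its reverse complement CTGTCA, which are the same core on the other strand, occurred in 2 of these 11 windows and in 15.8% of all 35116 promoters of that length. The bases before the start site are shown for ATP2A1, for STIM1, whose second listed promoter is the other window with the core, and for STIM2, the gene that rose with MEIS2 activation. Capitals mark the core on either strand, and each sequence is on the plus strand, which is the coding strand of these genes, at chr16:28878238-28878487, chr11:3854354-3854603 and chr4:26860591-26860840.
ATP2A1: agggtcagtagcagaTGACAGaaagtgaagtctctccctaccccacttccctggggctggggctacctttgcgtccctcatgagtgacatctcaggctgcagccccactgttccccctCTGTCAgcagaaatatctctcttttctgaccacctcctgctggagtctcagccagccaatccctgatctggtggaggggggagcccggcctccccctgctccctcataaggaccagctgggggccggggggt
STIM1: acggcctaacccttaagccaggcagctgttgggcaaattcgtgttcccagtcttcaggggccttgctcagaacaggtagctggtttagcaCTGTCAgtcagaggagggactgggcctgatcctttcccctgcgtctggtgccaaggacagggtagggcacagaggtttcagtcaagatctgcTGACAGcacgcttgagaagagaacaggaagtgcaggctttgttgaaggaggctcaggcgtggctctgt
STIM2: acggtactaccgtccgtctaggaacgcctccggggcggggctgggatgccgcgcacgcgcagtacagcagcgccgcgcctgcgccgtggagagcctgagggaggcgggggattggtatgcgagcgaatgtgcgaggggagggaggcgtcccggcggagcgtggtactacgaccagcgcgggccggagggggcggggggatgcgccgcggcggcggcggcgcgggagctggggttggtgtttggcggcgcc

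In the ATP2A1 window the 2 matches began at -235 and -132 relative to the start site, once on each strand. In the STIM1 window they began at -160 and -68, again once on each strand. The STIM2 window held no match and was a GC-rich sequence, with 74.7% G and C over the whole 300 bases against 61.0% for the ATP2A1 window. The other listed promoters of ATP2A1 and STIM1 held no match. The matches describe these letters only, and the RNA data used here hold no measure of binding. The authors mapped MEIS binding sites in untreated hNSC by ChIP-seq, and those sites were not compared with these windows.

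In GRCh37, the build of the alignment, ATP2A1 lies on chromosome 16 from 28889726 to 28915787, ATP2A2 on chromosome 12 from 110718561 to 110788898 and ATP2A3 on chromosome 17, on the minus strand, from 3827164 to 3867758. STIM1 lies on chromosome 11 from 3875757 to 4114440 and STIM2 on chromosome 4 from 26859223 to 27027003. ORAI1 lies on chromosome 12 from 122064414 to 122081124, ORAI2 on chromosome 7 from 102073553 to 102097272 and ORAI3 on chromosome 16 from 30960389 to 30967782. Reads from antisense genes at ATP2A1, STIM1, STIM2 and ORAI2 cannot be told apart from those of the member if strand was not used in counting. That setting is not given in the sources used here, nor is it given whether reads shared with a long non-coding gene that spans ORAI3 on the same strand were dropped.

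Per length, the SERCA mRNA of hNSC was almost all ATP2A2, the pump found in nearly every cell and in heart muscle. Dividing CPM by the kilobases of merged annotated exons, ATP2A2 had a median of 38.9 CPM per kb over the 36 libraries, against 1.497 for ATP2A1, the pump of fast skeletal muscle, and 0.0901 for ATP2A3, a pump known from blood and endothelial cells. ATP2A2 made up between 94.2% and 98.6% of the SERCA level per length in every library. The STIM genes were close to each other, with medians of 5.70 CPM per kb for STIM1, the sensor that drives entry after strong store depletion, and 4.71 for STIM2, which responds to smaller losses. Among the channels, ORAI3 had the highest median with 8.06 CPM per kb, followed by ORAI2 with 6.48 and ORAI1, the pore of the classical calcium release-activated channel, with 2.92. The merged exons count all annotated exons as if every transcript carried them, and the transcripts used in these cells were not measured separately.

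**Figure D1:**
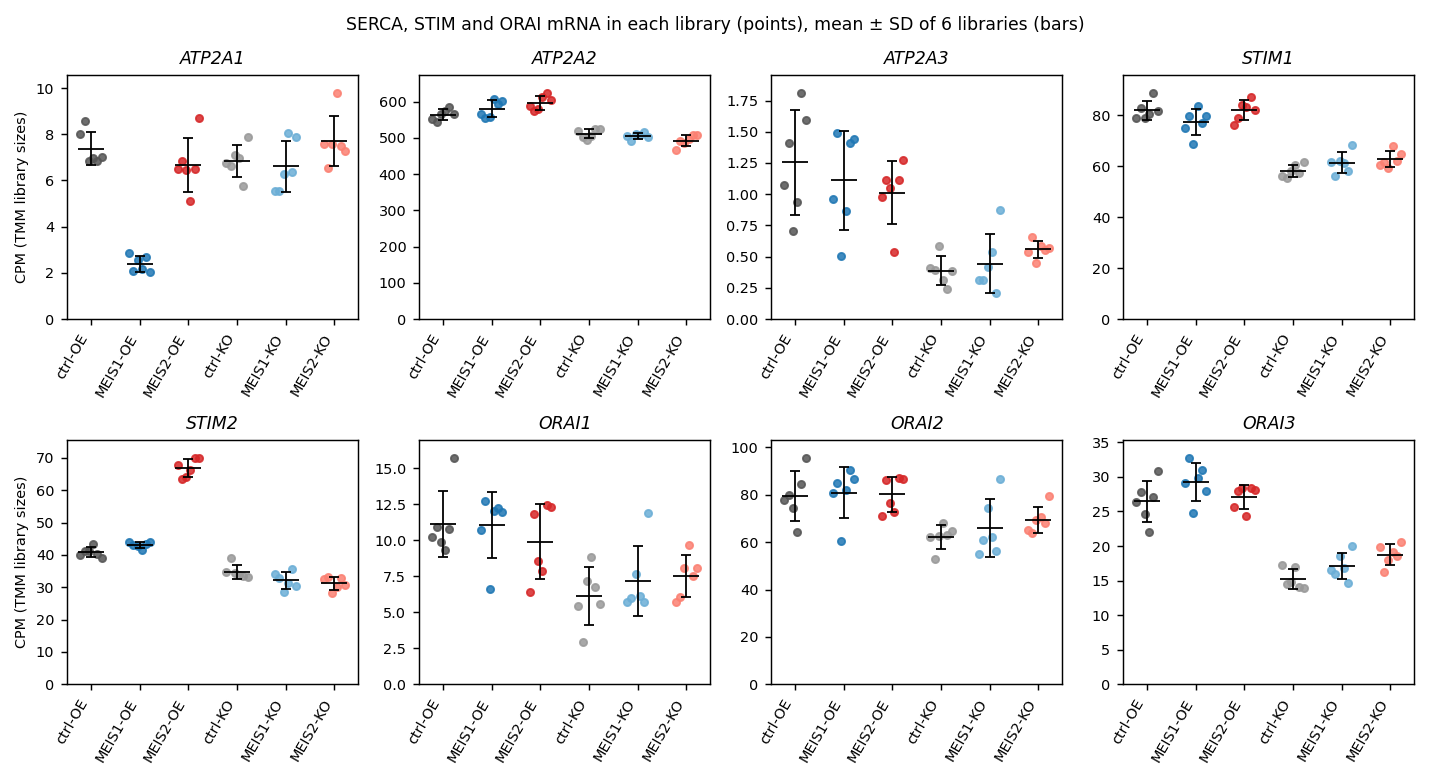
Level of each member in CPM (y axis, from 0) in the 6 conditions (x axis), with a point per library and bars for the mean ± SD of 6 libraries. The 6 MEIS1-OE libraries lie between 2.03 and 2.84 CPM for ATP2A1, and the 6 MEIS2-OE libraries lie between 63.4 and 70.0 CPM for STIM2, each apart from all other conditions.

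ATP2A1 was the member with the large difference after MEIS1 activation, and this contrast chose the gene. The MEIS1-OE libraries had 2.03, 2.08, 2.18, 2.57, 2.68 and 2.84 CPM. The ctrl-OE libraries had 6.84, 6.85, 6.98, 7.03, 7.997 and 8.56 CPM, so the groups did not overlap and every MEIS1-OE library was below every other library of the study. The log2(fold-change) was -1.62 with an SE of 0.12, a level 0.325 times that of the control, and it stayed between -1.68 and -1.54 under all 15 alternative settings. The values rest on 42 to 59 counts per MEIS1-OE library and 147 to 212 per ctrl-OE library. In bulk RNA, fewer cells that express the gene and less RNA per cell cannot be told apart.

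ATP2A1 was not called in MEIS2-OE, MEIS1-KO or MEIS2-KO against its control. Its log2(fold-change) was -0.14 in MEIS2-OE (edgeR adjusted p = 0.921) and 0.17 in MEIS2-KO (edgeR adjusted p = 0.366). Of the 6 MEIS2-OE libraries, 5 were below and 1 was above all ctrl-OE libraries. The MEIS2-OE libraries ranged from 5.11 to 8.70 CPM with a median of 6.48, the ctrl-KO libraries from 5.76 to 7.87 with a median of 6.87, the MEIS1-KO libraries from 5.53 to 8.03 with a median of 6.31, and the MEIS2-KO libraries from 6.54 to 9.80 with a median of 7.54. Ordered by mean, the conditions ran from MEIS1-OE (2.40 CPM) through MEIS1-KO (6.61), MEIS2-OE (6.67), ctrl-KO (6.85) and ctrl-OE (7.38) to MEIS2-KO (7.71). Only the step from MEIS1-OE to MEIS1-KO exceeded the larger of the neighbouring SDs. In MEIS1-KO the log2(fold-change) against ctrl-KO was -0.05 with a 95% interval from -0.28 to 0.18, and edgeR gave an adjusted p of 0.939. The MEIS1 contrast, which is the activation effect minus the knockout effect and shares its main libraries with the choice of the gene, was -1.57 with an SE of 0.17. The same contrast for MEIS2 was -0.32 with an SE of 0.15 and was not called (edgeR adjusted p = 0.326).

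Markers of skeletal and cardiac muscle, of which skeletal muscle is where ATP2A1 is best known, were mostly near 0. Of 15 such genes, 1 averaged at least 1 CPM (MYH3, an embryonic myosin, with 3.77 CPM), while MYH1 and MYH2 were at 0 in every library. Their summed level ranged from 6.04 to 8.27 CPM in MEIS1-OE and from 7.33 to 7.90 in ctrl-OE, so the groups overlapped and did not follow ATP2A1. The genes whose log2 CPM followed ATP2A1 most closely over the 36 libraries were SLC23A2 with a Pearson r of 0.76, AKT2 with 0.76, GALNT16 with 0.76, FAM155A with 0.73 and RBM24 with 0.72, among 13463 genes ranked. All of these correlations run over the same libraries and include the 6 low MEIS1-OE values.

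The other 7 members differed little between MEIS1-OE and ctrl-OE, and these values too are given without a test. Their log2(fold-change) values ran from -0.16 for ATP2A3 (SE 0.22) to 0.14 for ORAI3 (SE 0.08), against a median absolute value of 0.12 over all tested genes. Without the 4 libraries of a GC tilt over 0.5, a setting added after the data were seen, ORAI3 was at 0.24, ORAI1 at 0.22, ORAI2 at 0.16 and ATP2A3 at 0.06. ATP2A2 had 555 to 607 CPM in MEIS1-OE and 545 to 586 CPM in ctrl-OE, and the ranges overlapped. Over all tested genes, 9.10% were called in this comparison at an adjusted p under 0.05, and 3.48% in the MEIS1 contrast.

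STIM2 rose when MEIS2 was activated. The MEIS2-OE libraries had 63.4, 64.2, 66.4, 67.9, 69.9 and 70.0 CPM. The ctrl-OE libraries had 39.0, 40.1, 40.4, 41.2, 41.2 and 43.3 CPM, so that all 6 MEIS2-OE libraries were above all controls. The level was 1.64-fold higher, a log2(fold-change) of 0.71 with an SE of 0.05 and an edgeR adjusted p of 5.9e-14, and the other settings gave 0.69 to 0.73. STIM2 was the only one of the 8 members called in this comparison, in which 1.35% of all tested genes were called. The ctrl-OE libraries used here are the same that the choice of ATP2A1 used. Marker lists overlapped between the groups: the neuron list summed to 444 to 511 CPM in MEIS2-OE and 422 to 602 in ctrl-OE, and the neural stem cell list to 2962 to 3661 and 3039 to 3957.

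The STIM makeup of MEIS2-OE differed from that of the other conditions. Per length, STIM2 was 42.1% ± 1.5 (SD, n = 6) of the STIM level in ctrl-OE and 54.3% ± 1.3 (SD, n = 6) in MEIS2-OE. It ranged from 52.6% to 56.4% in MEIS2-OE and from 39.1% to 50.7% in the other conditions. Per length, STIM2 thus exceeded STIM1 in all 6 MEIS2-OE libraries and, elsewhere, in replicate 2 of ctrl-KO. In CPM, without division by length, STIM1 was above STIM2 in every MEIS2-OE library, with 76.2 to 87.1 against 63.4 to 70.0 CPM. In ctrl-OE, STIM1 had 78.8 to 88.9 CPM. The log2(fold-change) of STIM1 in MEIS2-OE was 0.00 with a 95% interval from -0.10 to 0.10.

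**Figure D2:**
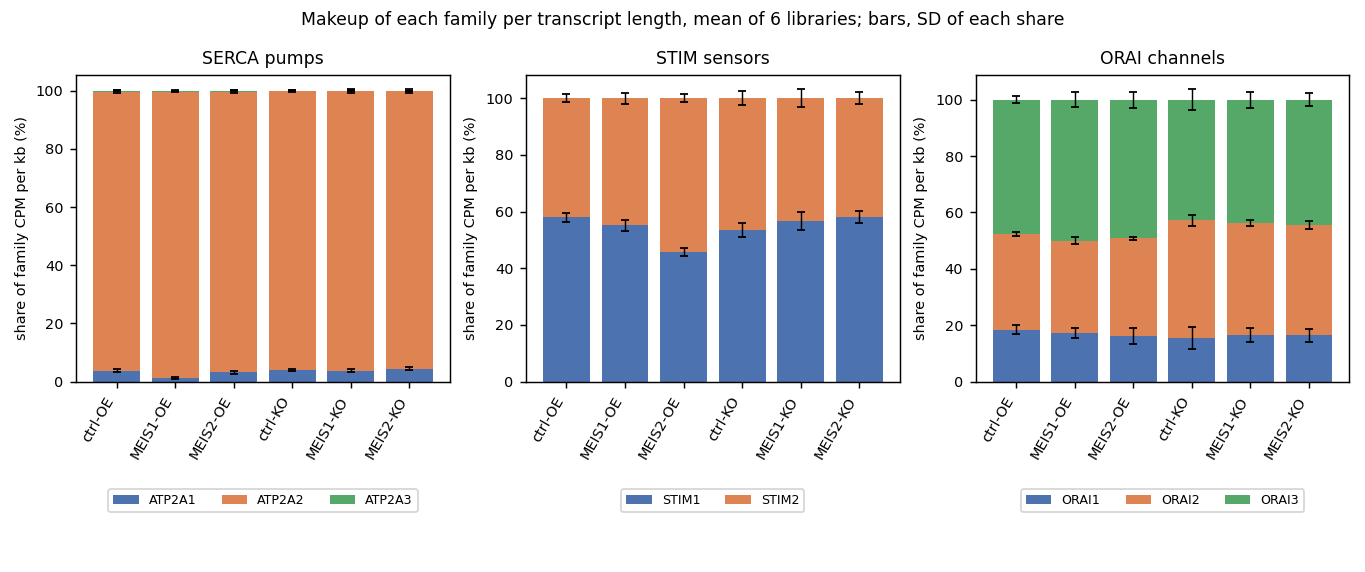
Share of each member (y axis, in % of the family's CPM per kb of merged exons) in the 6 conditions (x axis), as the mean of 6 libraries with the SD of each share, for SERCA, STIM and ORAI. STIM2 takes 54.3% in MEIS2-OE and ATP2A1 1.23% of SERCA in MEIS1-OE against 3.79% in ctrl-OE. Per length, ORAI3 has the largest mean channel share in each condition, in ctrl-KO with 42.8% ± 3.8 against 41.5% ± 1.9 for ORAI2.

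In MEIS1-OE, STIM2 was at 41.6 to 44.1 CPM, a log2(fold-change) of 0.08 with an SE of 0.05, and the difference between both activations was not tested. The genes that followed STIM2 most closely over the 36 libraries were KCNS1 with a Pearson r of 0.96, PRRT4 with 0.93 and FGFR1OP2 with 0.93. For STIM1 they were ACADVL with 0.97, TMEM214 with 0.97 and PI4K2A with 0.97. These orders include the distance between the activation and the knockout libraries.

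In the knockouts the STIM2 values were lower than in ctrl-KO, by a smaller step. The ctrl-KO libraries had 33.1, 33.4, 33.9, 34.4, 34.8 and 39.1 CPM. The MEIS2-KO libraries had 28.2, 30.03, 30.8, 32.5, 32.9 and 33.1 CPM, all below the lowest control, with the highest MEIS2-KO value next to the lowest control. STIM2 fell by 10.2%, a log2(fold-change) of -0.16 with an SE of 0.05 and an edgeR adjusted p of 0.0405. This call was lost in 11 of 15 alternative settings, with adjusted p between 0.0296 and 0.167 over all of them, and the value with offsets for GC content was -0.09. In MEIS1-KO the libraries ranged from 28.5 to 35.5 CPM with a median of 32.1, and the log2(fold-change) of -0.11 (SE 0.05) was not called (edgeR adjusted p = 0.349).

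The MEIS2 contrast, which sets the effect of activation against that of knockout, was 0.87 for STIM2 with an SE of 0.07 and an edgeR adjusted p of 1.6e-11. It was called under each alternative, with values from 0.80 to 0.88. STIM2 was again the only member called, where 2.57% of all tested genes were. ATP2A2 came next with 0.13 (SE 0.04) and an edgeR adjusted p of 0.0903. ATP2A2 was called with DESeq2 (adjusted p = 0.0492) and with replicate number as a block (edgeR adjusted p = 0.0346), in a range from 0.0346 to 0.344 over all alternatives.

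Among the channels, ORAI3 rose in MEIS2-KO. The MEIS2-KO libraries had 16.2, 18.0, 18.6, 19.2, 19.8 and 20.5 CPM. The ctrl-KO libraries had 13.96, 14.1, 14.5, 14.8, 16.9 and 17.2 CPM, so that 5 of the 6 knockout libraries were above all controls. The level was 1.23-fold higher, a log2(fold-change) of 0.30 with an SE of 0.08 and an edgeR adjusted p of 0.0136. Together with STIM2 this made 2 of 8 members called, where 10.0% of all tested genes were called. ORAI3 was not called without replicate 5 (edgeR adjusted p = 0.0707) or without replicate 6 (0.0601).

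GC content moved with this comparison. In MEIS2-KO against ctrl-KO, the median log2(fold-change) of genes was -0.12 in the least GC-rich decile and 0.13 in the most GC-rich decile, and the ORAI3 transcript, with 59.4% G and C, belongs to decile 9 of 10. With offsets that remove each library's trend on GC content, a setting added after the data were seen, ORAI3 was 0.19 with an SE of 0.06 and an edgeR adjusted p of 0.0176, a value over 1.5 times smaller. Over all alternatives the adjusted p of ORAI3 ran from 0.0032 to 0.0707. Marker levels moved as well. The neural stem cell list summed to 4981 to 6093 CPM in MEIS2-KO and 4397 to 4960 in ctrl-KO, and the list of blood and endothelium, led by CDH5, to 30.6 to 36.4 and 25.3 to 28.8, while the neuron list overlapped. The part of these markers in the ORAI3 and STIM2 values was not tested.

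ORAI1, ORAI2 and STIM1 were not called in MEIS2-KO. STIM1 had 59.3 to 68.1 CPM against 55.3 to 61.5 in ctrl-KO, with a log2(fold-change) of 0.11 and an edgeR adjusted p of 0.152. ORAI2 had 64.0 to 79.4 CPM against 52.9 to 68.1, with 0.16 and 0.330. For ORAI1, with 5.69 to 9.67 against 2.92 to 8.85 CPM, the 95% interval of the log2(fold-change) ran from -0.12 to 0.72. It holds values of either sign, so the missing call does not show equal levels. ATP2A3, with 8 to 13 counts per library against 5 to 10, had an interval from -0.14 to 1.21.

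In MEIS1-KO, no member was called by edgeR or by DESeq2, where 1.46% of all tested genes were called by edgeR. The unadjusted edgeR p was 0.0295 for STIM2 and 0.0454 for ORAI3. The share of all tested genes with such an unadjusted p is not given here. ORAI3 ranged from 14.7 to 20.01 CPM in MEIS1-KO, with a log2(fold-change) of 0.17 and a 95% interval from 0.00 to 0.33. Between MEIS1-KO and MEIS2-KO directly, a comparison in which ctrl-KO cancels, neither tool called a member, and 0.0152% of all tested genes were called. The smallest unadjusted edgeR p of the 8 members was that of ATP2A1 (0.0516).

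**Figure D3:**
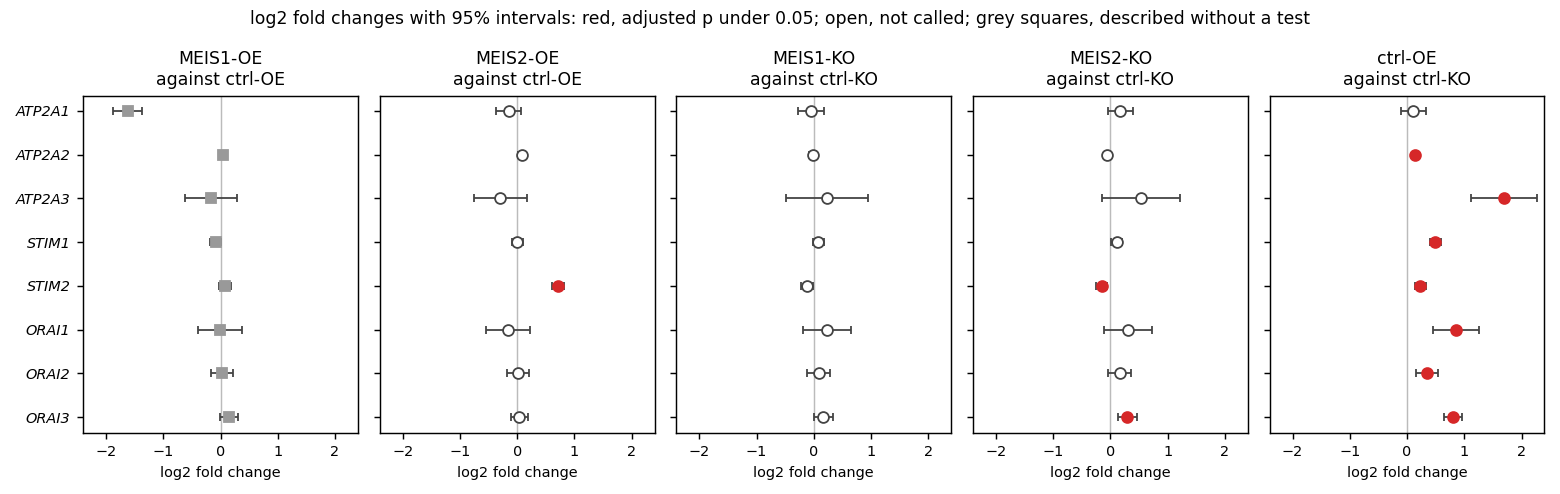
log2(fold-change) of each member (x axis) with 95% intervals from the edgeR fit in 5 comparisons (panels), with red points called at an adjusted p under 0.05, open points not called, and grey squares described without a test. ATP2A1 stands at -1.62 in MEIS1-OE and STIM2 at 0.71 in MEIS2-OE, and 7 of 8 members are red in ctrl-OE against ctrl-KO.

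Among the comparisons made here, the widest differences of the other 6 members lay between the controls, that is, between the vector systems with non-targeting guides. Every member had a higher mean in ctrl-OE than in ctrl-KO, and all but ATP2A1 were called. These made 7 of 8, where 51.4% of all tested genes were called, 27.5% as higher and 23.9% as lower. ATP2A3 was 3.24-fold higher (17 to 39 counts per library against 5 to 10), ORAI1 1.81-fold, ORAI3 1.74-fold and STIM1 1.41-fold, with edgeR adjusted p-values of 3.2e-06, 0.00039, 4.4e-11 and 2.6e-11. ORAI2 was 1.28-fold, STIM2 1.18-fold and ATP2A2 1.10-fold higher. For ATP2A2, ATP2A3, STIM1, ORAI1 and ORAI3 all 6 ctrl-OE libraries were above all ctrl-KO libraries. For STIM2 and ORAI2, 5 of 6 were. The share of all tested genes whose libraries separate in this way is not given here, so these counts do not set the members apart.

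ORAI3 shows the step most plainly: it had 22.05 to 30.9 CPM in ctrl-OE, 24.8 to 32.7 in MEIS1-OE and 24.3 to 28.4 in MEIS2-OE, while the 3 knockout conditions together spanned 13.96 to 20.5. STIM1 and ATP2A2 also had no overlap between the lowest activation and the highest knockout condition by mean. The ORAI makeup per length differed likewise, with ORAI2 at 33.9% ± 0.76 (SD, n = 6) in ctrl-OE and 41.5% ± 1.9 (SD, n = 6) in ctrl-KO. ATP2A1, in contrast, had 6.84 to 8.56 and 5.76 to 7.87 CPM, with a log2 difference of 0.11 and a 95% interval from -0.11 to 0.33.

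Between these controls GC content and cell markers moved too. The median log2 difference of genes, ctrl-OE minus ctrl-KO, went from -0.06 in the least to 0.25 in the most GC-rich decile. ATP2A3, ORAI1, ORAI2 and ORAI3 belong to deciles 8 to 10, as does ATP2A1, which was not called. With offsets for GC content, 7 of 8 members were still called, with 60.6% of the genes tested. Summed levels were lower in ctrl-OE for the neuron list, which is mostly MAP2 and TUBB3 (422 to 602 against 984 to 1029 CPM). The same held for the mesenchyme list (347 to 546 against 713 to 927) and the neural stem cell list (3039 to 3957 against 4397 to 4960). The vectors, the cells they leave and the preparation of the libraries cannot be told apart in this comparison.

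**Figure D4:**
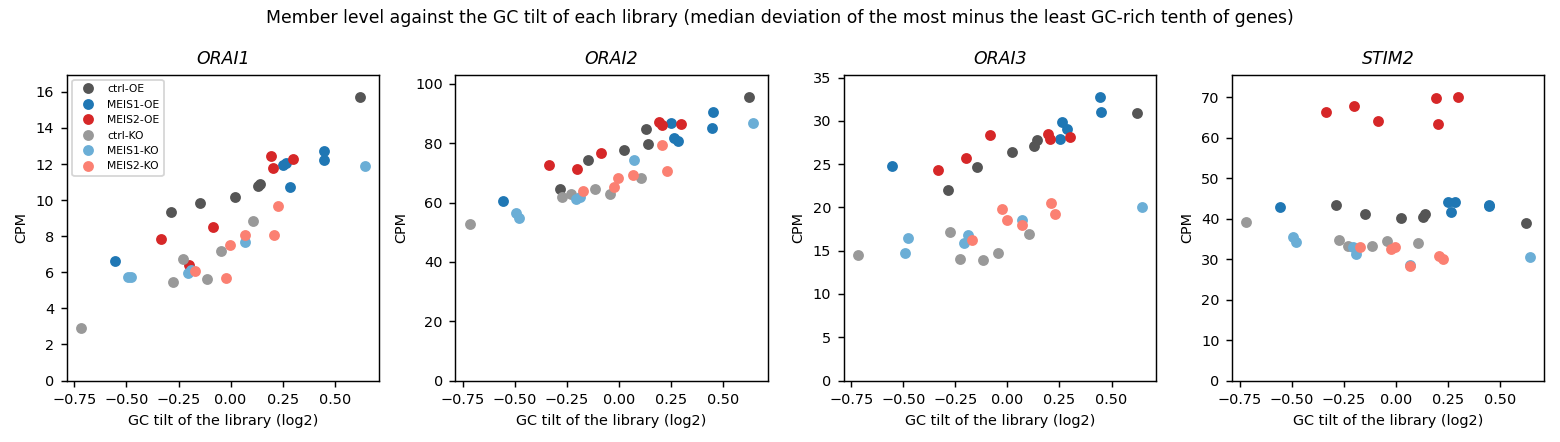
CPM of ORAI1, ORAI2, ORAI3 and STIM2 (y axes, from 0) against the GC tilt (x axis, log2) of each of the 36 libraries, coloured by condition. The library with the highest tilt of its condition has the highest ORAI1 and ORAI2 levels in 4 of 6 conditions each and the highest ORAI3 level in 2. ORAI1 is at 2.92 CPM at the lowest tilt of -0.72. STIM2 in MEIS2-OE lies between 63.4 and 70.0 CPM, at tilts from -0.33 to 0.30.

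Within conditions, ORAI levels were compared with the library's GC tilt. The library with the lowest tilt of its condition also had the lowest ORAI3 level in 5 of 6 conditions, the lowest ORAI2 level in 4 and the lowest ORAI1 level in 3. It had the lowest ATP2A3 level in 3, the lowest ATP2A1 and STIM1 levels in 2 each and the lowest STIM2 and ATP2A2 levels in 0. The library with the highest tilt also had the highest ORAI1 and ORAI2 levels in 4 conditions each, the highest ORAI3, ATP2A1, ATP2A3 and STIM1 levels in 2 each, the highest STIM2 level in 1 and the highest ATP2A2 level in 0. Of the channels, ORAI1 had the widest ratio of highest to lowest library in each condition: 9.35 to 15.7 CPM in ctrl-OE, 6.64 to 12.7 in MEIS1-OE, 6.43 to 12.4 in MEIS2-OE, 2.92 to 8.85 in ctrl-KO, 5.72 to 11.9 in MEIS1-KO and 5.69 to 9.67 in MEIS2-KO. Without the 4 libraries of a tilt over 0.5, the log2 difference of ORAI1 between the controls was 0.60 in place of 0.86, with an edgeR adjusted p of 0.00055, in a range from 2.6e-05 to 0.0040 over all alternatives. STIM2 in MEIS2-OE was 0.70 and ORAI3 in MEIS2-KO was 0.28 without them.

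Over the 36 libraries, the genes most like ORAI1 were ATG4D, YIPF2 and FBRS with Pearson r of 0.96, 0.95 and 0.95. Those most like ORAI2 were PPM1F, EMC10 and DNAJC5 with 0.98, 0.97 and 0.97, and those most like ORAI3 were WBP2, PXN and ZNHIT1 with 0.97 each. ATP2A2 ran closest to ENTPD7, KIAA1467 and SCRN1 with 0.94, 0.93 and 0.93, and ATP2A3 to POMT1, TRPM4 and ATOX1 with 0.91 each. The points of all these correlations share the step between activation and knockout vectors and the GC tilt of the libraries.

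Other genes of calcium handling were followed in 8 lists, of which 100 genes were tested. They comprise regulators of SERCA, STIM and ORAI, release channels of the ER, calcium-binding proteins of its lumen, other pumps and exchangers, TRPC channels, mitochondrial uptake, the calcineurin and NFAT response, and phospholipase C enzymes, which make the messenger that empties the store. In MEIS1-OE, 8 of the 100 rose and 7 fell, where 9.10% of all genes were called, and their median log2(fold-change) was -0.02 against 0.00. The count was 26 without the 4 libraries of a GC tilt over 0.5, when the share of all genes was 20.3%. JPH4, a junctophilin that ties the ER to the plasma membrane, rose from 13.1 to 15.5 CPM in ctrl-OE to 26.0 to 32.0 CPM in MEIS1-OE, a log2(fold-change) of 1.07 (SE 0.07, edgeR adjusted p = 1.5e-15). Its relative JPH3 fell, from 1.48 to 2.11 CPM down to 0.755 to 1.64 CPM with overlapping ranges, a log2(fold-change) of -0.66 (SE 0.19, edgeR adjusted p = 0.0165).

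SLC8A2, a sodium-calcium exchanger of neurons, rose in MEIS1-OE from 1.25 to 1.88 CPM up to 2.87 to 3.59 CPM, a log2(fold-change) of 1.05 (SE 0.18, edgeR adjusted p = 5.4e-05). PLCH2, a phospholipase C, was called with 3 to 13 counts per library against 0 to 2. All 15 ER lumen proteins and all 12 tested calcineurin and NFAT genes were among those not called in MEIS1-OE. These are tests of genes that did not choose the members, in the contrast in which ATP2A1 was chosen.

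In MEIS2-OE, 3 of the 100 genes rose and none fell, against 1.35% of all genes. They were TMEM178A with a log2(fold-change) of 0.21, TRPC4 with 0.58 and MCUR1 with 0.19, and are named because the count is small, after their values were seen. TRPC4 was also called in MEIS1-OE, with 0.50 (edgeR adjusted p = 0.00029), while TMEM178A and MCUR1 were not called there. The list median was 0.01, and that of all genes -0.01. The count was 1 to 3 when replicates were left out in turn, and 7 with GC offsets, when 2.69% of all genes were called.

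In MEIS1-KO, 3 rose and 1 fell, against 1.46% of all genes. They were CAV1 with a log2(fold-change) of 0.49, RCAN1 with 0.31, ESYT2 with 0.20 and CCDC109B with -0.25, named in the same way. Each of these was also called in MEIS2-KO with the same sign, at 0.62, 0.42, 0.23 and -0.28. Between MEIS1-KO and MEIS2-KO directly, no list gene was called. RCAN1 encodes an inhibitor of calcineurin whose transcription calcium signalling is known to raise, and CAV1 encodes the coat protein of caveolae. The count ranged from 0 to 5 when replicates were left out in turn, and was 7 with filterByExpr, with the replicate block and with DESeq2, and 8 with GC offsets, when 4.94% of all genes were called. The list median was 0.01 and that of all genes 0.00.

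In MEIS2-KO, 10 rose and 6 fell, against 10.0% of all genes. CAV1 rose from 11.3 to 15.7 CPM in ctrl-KO up to 18.5 to 23.6 CPM, a log2(fold-change) of 0.62 (SE 0.10, edgeR adjusted p = 6.5e-05). PLCH2 was called with 1 to 4 counts per library against 0 to 1. The phospholipase C list and the list of SERCA, STIM and ORAI regulators had the most calls, each with 3 higher and 2 lower, of 12 and 22 tested. The count over all lists was 9 without replicate 5, and the list median of 0.00 was near that of all genes (-0.01).

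**Figure D5:**
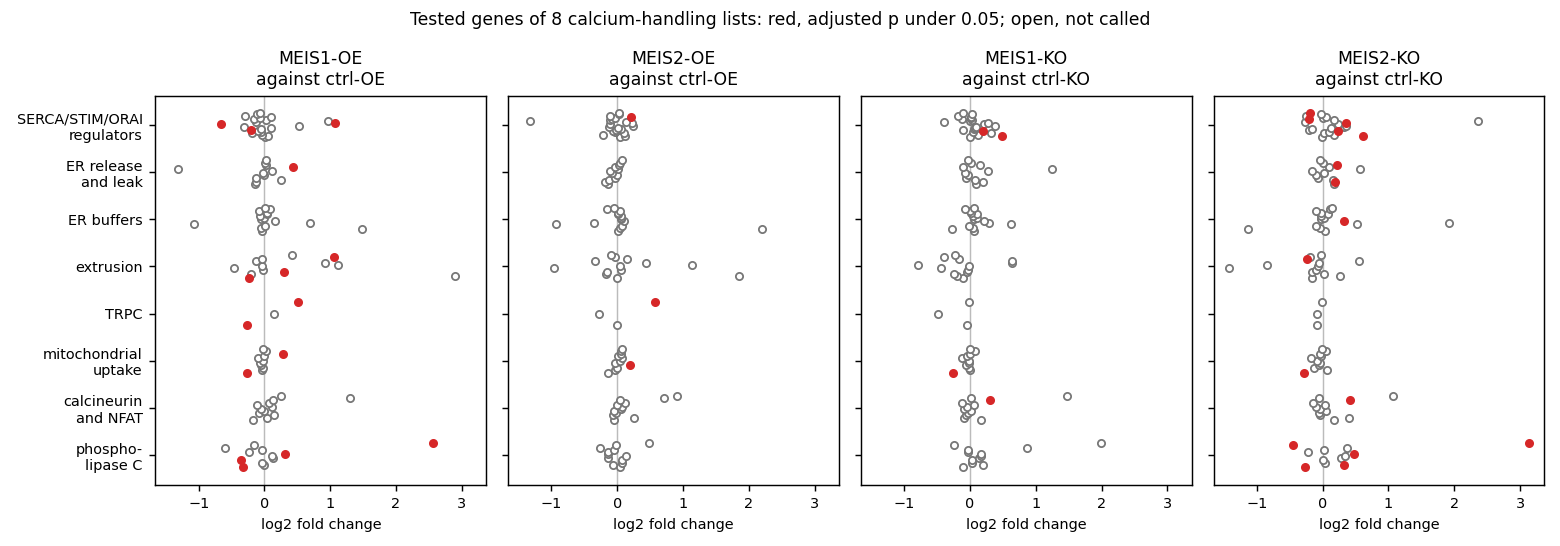
log2(fold-change) (x axis) of the tested genes of 8 calcium-handling lists (rows) in the 4 comparisons with a control (panels), with red points called at an adjusted p under 0.05 and open points not called. Called genes lie on both sides of 0 in MEIS1-OE, MEIS1-KO and MEIS2-KO, and 3 are called, all higher, in MEIS2-OE.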

How the data were processed

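Poly-A RNA of hNSC was turned into stranded libraries and sequenced by the authors in paired reads of 100 bases. Reads were aligned to hg19 with STAR and counted per gene with HTSeq. The submitters' processing notes name Trimmomatic 0.39 and STAR 2.7.0a, and the annotation is not given in the sources used here. The values deposited by the authors are raw counts without normalization for 28516 gene symbols and 36 libraries (15429985 to 22940493 counts each). The counts were matched to conditions by library label.

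The 19689 genes with at least 10 counts over all libraries were fitted with edgeR 4.0.16 (limma 3.58.1, R 4.3.3; TMM, quasi-likelihood F-test, 1 fit of 6 groups). Two-sided tests were used, with Benjamini-Hochberg adjustment over all tested genes. A gene was called at an adjusted p under 0.05. SEs were obtained from each fold change and its F statistic. The fit was tested on simulated data. GC content was that of the longest GENCODE transcript and was found for 87.0% of the tested genes.

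The members and gene lists were chosen with earlier results of these data known. Named are the members, MEIS1, MEIS2, list genes called with an absolute log2 fold change above 0.58 against a control, and, by Pearson r of log2 CPM (prior count 2, mean CPM of at least 1), the 5 genes most like ATP2A1 and the 3 most like each other member. Alternatives were RLE factors, filterByExpr, no filter, a prior count of 2, a replicate block, only the groups compared, each of 6 replicate numbers left out, DESeq2 1.42.0 and, added after the data were seen, GC offsets and the omission of 4 libraries. Python 3.11.15 (numpy 2.4.6, pandas 2.3.3, matplotlib 3.10.9) was used for summaries and plots.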

Additional observations from a re-analysis of the deposited data

Results flagged for a closer look

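Among 48 sets of 6 libraries (8 members in 6 conditions), 6 held a library whose gap to the nearest of the others, as a share of the whole range, exceeded Dixon's 95% critical value, and chance alone gives such a gap in about 1 in 20 sets. ATP2A1 was at 9.80 CPM in replicate 4 of MEIS2-KO, against 6.54 to 7.57 in the other 5. STIM2 was at 39.1 CPM in replicate 2 of ctrl-KO, against 33.1 to 34.8. ORAI1 was at 15.7 CPM in replicate 6 of ctrl-OE (9.35 to 10.9 in the others), at 6.64 CPM in replicate 3 of MEIS1-OE (10.7 to 12.7) and at 11.9 CPM in replicate 6 of MEIS1-KO (5.72 to 7.68). ORAI2 was at 60.4 CPM in replicate 3 of MEIS1-OE, against 80.9 to 90.5. Of these 6 values, 5 come from the 4 libraries with a GC tilt over 0.5 in size. The part of GC content in them was not tested gene by gene.

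The effect of activating MEIS2 on STIM2 differed from that of knocking it out, by 0.87 on the log2 scale (edgeR adjusted p = 1.6e-11). Most of this was the activation effect of 0.71, against -0.16 in the knockout. All 6 MEIS2-OE libraries were above and all 6 MEIS2-KO libraries below their controls. The knockout side was close, with 33.09 CPM for the highest MEIS2-KO library and 33.13 for the lowest control, and its call held in 4 of 15 alternative settings. The share of all tested genes that separate in this way is not given here.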

How the results depend on the processing

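Of 960 fold changes of members under the alternatives, 13 lost a call (STIM2 in 11 and ORAI3 in 2 settings, both in MEIS2-KO) and 2 gained one (ATP2A2). No called value changed its sign, while 31 values that were not called or not tested did, 16 of them tested. In log2, STIM1 in MEIS2-OE went from 0.00063 to -0.0024 with RLE factors, -0.0023 with DESeq2, -0.00069 with GC offsets and -0.00033 without the GC-tilt libraries, and ran from -0.018 to 0.015 without a replicate. ORAI2 in MEIS2-OE ran from -0.016 to 0.049 without a replicate. With GC offsets, ATP2A1 in ctrl-OE against ctrl-KO was -0.033 in place of 0.11 and STIM2 in MEIS1-KO against MEIS2-KO was -0.0018 in place of 0.04. In MEIS1-KO without the GC-tilt libraries, ATP2A3 was -0.082 in place of 0.22, ORAI1 -0.11 in place of 0.23 and ORAI2 -0.052 in place of 0.08. Without a replicate, ATP2A3 in MEIS1-KO ran from -0.088 to 0.39 and ORAI1 in MEIS1-KO against MEIS2-KO from -0.26 to 0.057. Without the GC-tilt libraries the untested MEIS1 contrast moved from -0.39 to 0.14 for ATP2A3, from -0.24 to 0.34 for ORAI1, from -0.06 to 0.21 for ORAI2 and from -0.02 to 0.13 for ORAI3. The low counts of ATP2A3 and ATP2A1 limit what differences could be seen. The count of members called in MEIS2-KO was 2, and became 1 with RLE factors, with no filter, with only the groups compared, with GC offsets and without the GC-tilt libraries, and 0 to 1 when a replicate was left out. In the MEIS2 contrast it was 2 in place of 1 with the replicate block and with DESeq2. For the calcium-handling lists, MEIS1-OE gave 26 without the GC-tilt libraries in place of 15. MEIS2-OE gave 7 with GC offsets and 1 to 3 without a replicate, in place of 3. MEIS1-KO gave 7 with filterByExpr, with the replicate block and with DESeq2, 8 with GC offsets and 0 to 5 without a replicate, in place of 4. MEIS2-KO gave 9 to 16 without a replicate, in place of 16. The causes of these shifts were not tested.

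The labels number the replicates without stating that equal numbers pair libraries, and the main fit did not pair them. Deviations of same-numbered libraries had a correlation over 0.1 in 16 of 90 pairs. Their mean was 0.0361, against -0.00732 in other pairs, and 16 of 36 libraries correlated best with their own number, a hint from the data and not from the design. The replicate block raised the genes called in MEIS1-KO from 287 to 458 and changed no other call of a member than that of ATP2A2 in the MEIS2 contrast.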
